A study of Mus musculus with 8 samples.

Results

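The genes described here write, copy and remove cytosine methylation in DNA. They were chosen by symbol as Dnmt1, Uhrf1, Dnmt3a, Dnmt3b, Dnmt3l, Tet1, Tet2, Tet3, Tdg and Mbd4, which are 10 of the 26586 genes listed in the count table, and 9 of them passed the expression filter. Dnmt1 copies methylation onto the newly made strand after replication, and Uhrf1 brings it to hemimethylated CpG sites. Dnmt3a and Dnmt3b methylate new sites, with Dnmt3l as their cofactor in germ cells. The TET enzymes oxidise methylated cytosine, and the glycosylases Tdg and Mbd4 cut out altered or mismatched bases so that repair can restore cytosine. In the mouse, oocytes gain most of their methylation after birth, while they grow beyond the primordial stage.

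RNA-Seq was performed on primordial follicles from ovaries of C57Bl/6 x CBA mice on postnatal day 3. The mice were controls or belonged to the third generation after founders from oocytes supplemented with mitochondria. There were 4 control and 4 mito-supplemented libraries, the latter from descendants of founders that arose from oocytes injected with mitochondria from egg precursor cells along with a spermatozoon. The study's colony controls came from natural matings, and no injection is named for the controls sequenced. For the founders, oocytes were superovulated, and embryos were cultured, vitrified, warmed and transferred to surrogates. The mitochondria, the injection procedure and these other steps therefore cannot be told apart. The follicles were picked from digested ovaries without a sort on a marker, and how many animals went into each library was not given, so p-values measure the spread between these libraries. Libraries whose labels begin alike may be related, which is not stated. Total counts ranged from 10370045 in control replicate 4 to 19760763 in mito-supplemented replicate 1. The mitochondrial rRNA genes Rnr1 and Rnr2 took 74.0% of the counts in control replicate 4 and between 14.9% and 44.3% in the other libraries.

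Libraries stood apart in a way that the groups do not describe. Across genes, which are not independent replicates, r was 0.886 to 0.920 among 3 libraries, namely control replicate 2, control replicate 3 and mito-supplemented replicate 1, the order used below. Between these and the other 5 libraries it was 0.624 to 0.787, and among the other 5 it was 0.622 to 0.919. The erythroid markers summed to 3617, 2402 and 4530 CPM (counts relative to the library's total, scaled by TMM) in these 3 libraries and to between 13.4 and 72.9 CPM in the other 5. Their most abundant gene was Slc4a1, the red cell anion exchanger, at 2504, 1704 and 2999 CPM against 4.06 to 47.6 CPM, while the globin gene Hba-a1 was at 0 in 7 libraries and at 0.243 CPM in mito-supplemented replicate 1, and Hba-a2 reached 8.40 CPM in control replicate 2 and at most 0.277 CPM elsewhere. The proliferation genes summed to 22808, 18200 and 13204 CPM in the same 3 libraries and to between 1125 and 2054 CPM in the others, with Mki67, a marker of dividing cells, as the most abundant. The immune markers, led by the macrophage and granulocyte gene Lyz2, reached 141, 124 and 779 CPM there and between 8.69 and 22.1 CPM elsewhere. The group differences of the 10 genes are therefore given with and without these 3 libraries.

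The follicle markers were present in all 8 libraries, at levels that varied widely. The oocyte markers, led by Nlrp5, which encodes a protein of the egg's maternal store, summed to 4466, 232, 219 and 811 CPM in control replicates 1 to 4. In mito-supplemented replicates 1 to 4 they summed to 372, 256, 970 and 152 CPM. Control replicate 1 was far above the rest, and the ranges of both groups overlapped (two-sided exact permutation p = 0.629). Ddx4, a germ cell RNA helicase, was found in every library, between 7.86 and 71.3 CPM.

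The pregranulosa markers, led by Wt1, a transcription factor of gonadal somatic cells, summed to 280, 283, 344 and 903 CPM in controls. In mito-supplemented libraries they summed to 561, 1306, 838 and 1348 CPM, and the ranges overlapped again (two-sided exact permutation p = 0.0857). All libraries also held RNA of other ovarian cells. The stroma markers, led by the collagen gene Col3a1, ranged from 336 to 2480 CPM, the endothelial markers, led by the receptor gene Kdr, from 27.2 to 228 CPM, and the smooth muscle markers, led by the myosin gene Myh11, from 21.2 to 324 CPM. The surface epithelium markers, led by Upk3b, summed to 81.5, 39.5, 30.4 and 331 CPM in controls and to 264, 728, 292 and 605 CPM in mito-supplemented libraries (two-sided exact permutation p = 0.0857). All 9 of them had log2 fold changes above 0, with a median of 1.89, as had 11 of the 12 pregranulosa markers, with a median of 1.11, all 8 stroma markers (median 0.74), all 5 smooth muscle markers (0.88), 6 of 8 endothelial markers (1.10) and all 6 tested immune markers (0.90), of which 2 were above 0 without mito-supplemented replicate 1. Without mito-supplemented replicate 4, 2 of the smooth muscle markers were above 0 (median -0.17) and 6 of the stroma markers (0.44). Without mito-supplemented replicate 3, 5 of the endothelial markers were above 0 (0.43). Leaving out control replicate 4 raised the medians to 1.69 for stroma, 2.10 for smooth muscle and 1.57 for endothelial markers. In the same setting they were 3.36 for surface epithelium and 1.79 for pregranulosa markers. Of the 17 tested oocyte markers 0 were above 0, with a median of -1.65, but 11 were without control replicate 1 and 16 with limma-voom weights, so that this direction rested on that library. Of the 13 proliferation genes 0 were above 0, with a median of -1.18, and 6 were without the 3 libraries that stood apart. What part these markers had in the group differences of the 10 genes was not tested. In such libraries, fewer cells of a type and less RNA per cell cannot be told apart.

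Per kilobase of exon, the order of the mean levels over the 8 libraries was Dnmt1 at 39.7 ± 25.5 (SD, n = 8), Uhrf1 at 23.1 ± 16.5 and Dnmt3a at 13.7 ± 7.15 CPM per kb. Tet2 at 7.26 ± 1.79, Tet1 at 7.22 ± 5.05 and Tet3 at 6.67 ± 1.98 CPM per kb lay next to each other, ahead of Mbd4 at 4.27 ± 2.81 and Dnmt3b at 2.13 ± 1.57. Tdg was the lowest of the detected genes at 0.656 ± 0.196 CPM per kb. Each pair of neighbours in this order differed by less than the larger of their SDs. The order of the TET genes was reversed between the groups. Controls had means of 7.89 for Tet3, 7.35 for Tet2 and 5.64 CPM per kb for Tet1, with Mbd4 above Tet1 at 5.72. Mito-supplemented libraries had means of 8.81 for Tet1, 7.18 for Tet2 and 5.45 CPM per kb for Tet3. Tet2 varied least, by 2.11-fold between its lowest and highest library, and Uhrf1 most, by 14-fold.

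**Figure D1:**
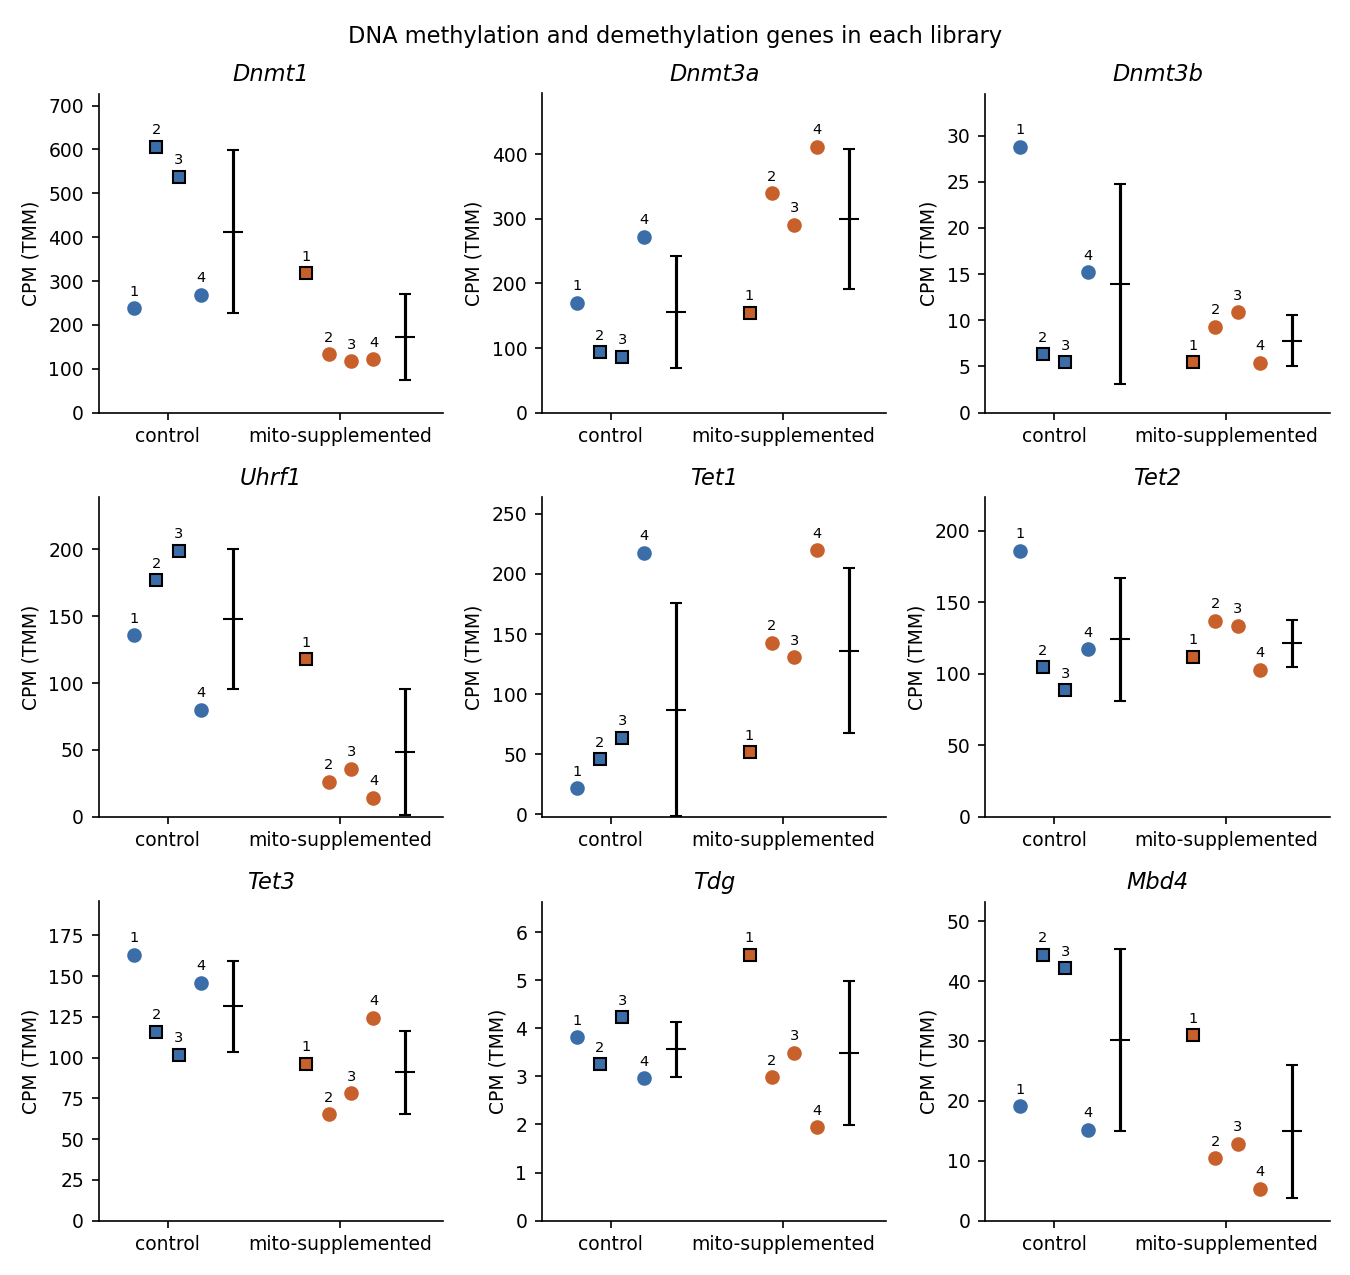
Levels of the 9 tested genes in each library, in CPM scaled by TMM on an axis of its own for each gene, with the replicate number above each point and the mean with 1 SD beside each group. Squares with a black edge are the 3 libraries that stood apart. For Dnmt1, Uhrf1 and Mbd4, mito-supplemented replicates 2 to 4 lay below all 4 controls, and for Dnmt3a above them. For these genes mito-supplemented replicate 1 lay within the range of the controls, and the share of all genes with this pattern was not counted.

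The maintenance genes Dnmt1 and Uhrf1 both had lower mean levels in the mito-supplemented group, where Dnmt3a lay between them per kilobase. Dnmt1, on chromosome 9 at 20907209 to 20959888 of GRCm38 on the minus strand, was read at 238, 606, 538 and 269 CPM in control replicates 1 to 4. In mito-supplemented replicates 1 to 4 it was read at 318, 133, 117 and 121 CPM. Replicates 2 to 4 of the mito-supplemented group lay below every control, whereas replicate 1 lay above 2 of the controls, so that the groups overlapped. The control mean of 413 ± 186 CPM and the mito-supplemented mean of 172 ± 97.1 CPM (SD, n = 4 each) gave p = 0.0857 in a two-sided exact permutation test, in which 4 against 4 can reach 0.0286. The log2 fold change of mito-supplemented over control was -1.26 ± 0.46 (SE), with a Benjamini-Hochberg adjusted p of 0.626 over 13873 genes in the quasi-likelihood test of edgeR.

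Uhrf1, the partner of Dnmt1, is on chromosome 17 at 56303321 to 56323486 on the plus strand. Its levels were 136, 177, 199 and 80.1 CPM in controls and 118, 26.0, 36.0 and 14.2 CPM in mito-supplemented libraries. As with Dnmt1, mito-supplemented replicates 2 to 4 were below every control and replicate 1 was not, being above control replicate 4. The means were 148 ± 52.3 and 48.5 ± 47.1 CPM (SD, n = 4 each), which gave p = 0.0571 in the exact permutation test (two-sided). The log2 fold change was -1.61 ± 0.62 (SE), with an adjusted p of 0.626 in the edgeR quasi-likelihood test. Part of the Uhrf1 transcript is 98.3% identical over 1590 bases to the processed pseudogene Gm5648, so its counts are uncertain to the extent that reads were shared.

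The promoters of both genes are shown because their levels moved together over the libraries, with that of Mbd4, whose levels followed them, for comparison. The RefSeq windows (GRCm38.p6) run from 250 bases before to 50 bases after a start site, and 17 windows matched the 10 genes. Of the 3 windows of Dnmt1 and the 2 of Uhrf1, those with a motif match are printed; capitals mark TTTCCCGC, TTTCGCGC, TTTGCCGC or TTTGGCGC, the forms of the motif of the E2F cell cycle factors, searched on both strands. The windows are chr9:20952574-20952873 on the minus strand for Dnmt1, chr17:56304063-56304362 on the plus strand for Uhrf1 and chr6:115853292-115853591 on the minus strand for Mbd4.
Dnmt1: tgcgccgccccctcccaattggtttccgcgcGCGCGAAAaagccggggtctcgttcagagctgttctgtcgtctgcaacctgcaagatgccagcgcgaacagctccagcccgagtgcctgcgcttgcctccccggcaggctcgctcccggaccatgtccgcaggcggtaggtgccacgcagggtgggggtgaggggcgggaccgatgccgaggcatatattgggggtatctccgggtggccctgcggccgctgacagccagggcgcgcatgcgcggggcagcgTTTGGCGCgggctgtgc
Uhrf1: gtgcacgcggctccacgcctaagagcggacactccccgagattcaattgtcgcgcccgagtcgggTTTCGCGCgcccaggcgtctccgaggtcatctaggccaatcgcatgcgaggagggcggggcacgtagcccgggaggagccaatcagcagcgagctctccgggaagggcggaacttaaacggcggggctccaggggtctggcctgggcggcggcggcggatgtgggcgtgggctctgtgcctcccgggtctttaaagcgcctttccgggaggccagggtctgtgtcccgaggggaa
Mbd4: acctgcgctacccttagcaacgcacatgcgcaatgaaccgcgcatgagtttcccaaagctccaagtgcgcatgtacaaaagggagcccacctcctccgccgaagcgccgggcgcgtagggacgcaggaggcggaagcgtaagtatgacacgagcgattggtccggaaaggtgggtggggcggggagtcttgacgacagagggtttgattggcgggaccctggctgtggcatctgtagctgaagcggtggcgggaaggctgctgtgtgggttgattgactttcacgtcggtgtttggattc
The Dnmt1 window held TTTGGCGC on its own strand and the reverse form GCGCGAAA, which did not overlap, and the Uhrf1 window held TTTCGCGC. No other window of the 10 genes held a match, and 2.27% of the 32851 windows of all genes did. The printed windows of Dnmt1 and Uhrf1 each had 33 CG pairs and that of Mbd4 had 25, against a median of 7 over all windows. The other windows of Dnmt1 had 2 and 12, and that of Uhrf1 had 12. Windows without a match reached 57 for Tet2 and 47 for Dnmt3a. Each form of the motif itself holds a CG pair, and the Dnmt1 and Uhrf1 windows were chosen by a match. A match describes the letters only, and the counts sum over all start sites of a gene, so that which site was used was not tested.

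Of the genes that methylate new sites, Dnmt3a had a log2 fold change above 0, and Dnmt3b had one below 0 that changed sign with limma-voom weights (0.52); the difference between them was not tested. Dnmt3a, on chromosome 12, was at 170, 93.2, 86.5 and 272 CPM in controls and at 155, 340, 291 and 412 CPM in mito-supplemented libraries. Mito-supplemented replicates 2 to 4 were above every control, while replicate 1 was below controls 1 and 4. The means were 156 ± 86.6 and 299 ± 108 CPM (SD, n = 4 each; exact permutation test, two-sided, p = 0.0857). Its log2 fold change was 0.94 ± 0.46 (SE), with an adjusted p of 0.661 in the edgeR quasi-likelihood test. The 3 libraries that were highest for Dnmt1 were the 3 lowest for Dnmt3a, and the 3 lowest for Dnmt1 were the 3 highest for Dnmt3a.

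Dnmt3b, on chromosome 2, had 28.8, 6.34, 5.43 and 15.2 CPM in controls and 5.48, 9.28, 10.9 and 5.42 CPM in mito-supplemented libraries. Controls 1 and 4 were the highest, and the other 6 libraries lay together. The log2 fold change was -0.84 ± 0.62 (SE; adjusted p = 0.736, edgeR quasi-likelihood test), and without control replicate 1 it was -0.18. Its transcript is 93.9% identical over 1434 bases to Dnmt3c, a rodent methyltransferase that the count table does not list, which makes its counts uncertain too. Dnmt3l had 0 counts in all 8 libraries, which allows up to 0.123 CPM in control replicate 1 and up to 0.592 CPM in control replicate 4, the shallowest library (3 counts per library, for counting error only).

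The TET genes had log2 fold changes on both sides of 0. Tet1, on chromosome 10, was at 21.5, 45.6, 63.8 and 218 CPM in controls and at 51.4, 143, 131 and 220 CPM in mito-supplemented libraries. Control replicate 4 was as high as the highest mito-supplemented library, and the log2 fold change of 0.65 ± 0.68 (SE; adjusted p = 0.798, edgeR quasi-likelihood test) became 1.66 without that control and 1.39 with scaling by library size only. Tet3, on chromosome 6, was at 163, 116, 102 and 146 CPM in controls and at 96.2, 65.3, 78.1 and 125 CPM in mito-supplemented libraries. Mito-supplemented replicates 1 to 3 were below every control, and replicate 4 was above 2 of them; the log2 fold change was -0.53 ± 0.32 (SE; adjusted p = 0.696, same test).

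Tet2, on chromosome 3, lay between 88.2 and 186 CPM in controls and between 103 and 137 CPM in mito-supplemented libraries. Its means of 124 ± 43.0 and 121 ± 16.6 CPM (SD, n = 4 each) differed by less than either spread, and its log2 fold change of -0.03 ± 0.32 (SE) turned positive under other scalings. Over all 8 libraries it therefore had no stable direction. The exact permutation test (two-sided) gave p = 0.4 for Tet1, 0.914 for Tet2 and 0.114 for Tet3.

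Of the glycosylases, Mbd4, on chromosome 6, was at 19.1, 44.4, 42.1 and 15.2 CPM in controls and at 31.0, 10.4, 12.9 and 5.35 CPM in mito-supplemented libraries. It followed the same libraries as Dnmt1 and Uhrf1: mito-supplemented replicates 2 to 4 were below every control, and replicate 1 was above 2 controls. The means were 30.2 ± 15.2 and 14.9 ± 11.2 CPM (SD, n = 4 each; exact permutation test, two-sided, p = 0.171), with a log2 fold change of -1.02 ± 0.60 (SE; adjusted p = 0.683, edgeR quasi-likelihood test). Tdg, on chromosome 10, had between 2.96 and 4.23 CPM in controls and between 1.95 and 5.53 CPM in mito-supplemented libraries (exact permutation test, two-sided, p = 0.943). Its log2 fold change of -0.03 ± 0.64 (SE) changed sign under other scalings. Tdg rested on 15 to 114 counts per library, and its transcript is 98.7% identical over 2968 bases to the pseudogene Tdg-ps, 99.2% identical over 1194 bases to Gm9855 and 99.3% identical over 1193 bases to Gm5597, so its counts are the least certain. Exons of Dnmt3a, Dnmt3l, Tet2, Tdg and Mbd4 overlap genes on the opposite strand, and the strand setting of the counting was not given.

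Taken over the 9 tested genes, 0 passed an adjusted p under 0.05 in the edgeR quasi-likelihood test, where 0.0% of the 13873 genes tested did. At an unadjusted p under 0.05, 2 were lower, Uhrf1 and Dnmt1, and 0 were higher, where 2.4% of all genes tested were lower and 5.31% higher. With scaling by library size only, Dnmt3a and Tet1 passed that level as higher, and Dnmt1 and Uhrf1 did not pass it; of all genes tested, 53 were then lower and 1288 higher, against 333 and 736 with TMM. The likelihood ratio test and DESeq2 called 58 and 141 of all genes and 0 of the 9. Limma-voom with sample quality weights called 2913 genes, 10% of all genes tested being lower and 11% higher. Among these were Dnmt1, Uhrf1 and Mbd4, lower at adjusted p of 0.0113, 0.0124 and 0.0173, and Dnmt3a, higher at 0.0127; over all alternatives the adjusted p of each ranged up to 0.972. This method gave control replicate 3 a weight of 3.53 and control replicate 1 a weight of 0.231.

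Of the 9 log2 fold changes, 7 were below 0 and 2 above, with a median of -0.53. These became 5 and 4 with library size only, upper quartile factors or limma-voom weights, as Tet2 with Tdg or Dnmt3b changed sign, and 5 and 4 with a median of -0.18 without control replicate 1. Over all genes tested, 7648 were below 0 and 6225 above, with a median of -0.10. Scaling by library size alone moved that median to 0.17, and that of the 9 genes to -0.28. The count of 2 genes with an unadjusted p under 0.05 became 0 without control replicate 2 or 3, or without mito-supplemented replicate 2, 3 or 4. In those settings 0.842% to 2.13% of all genes tested were lower at that level and 3.1% to 4.24% higher. It became 4 without control replicate 4, where 3.66% of all genes tested were lower and 8.98% higher. Without mito-supplemented replicate 1 it was also 4, where 7.0% were lower and 7.06% higher. In 0 of the 9 genes were the groups free of overlap, against 2.03% of all genes tested that were lower without overlap and 3.0% that were higher.

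**Figure D2:**
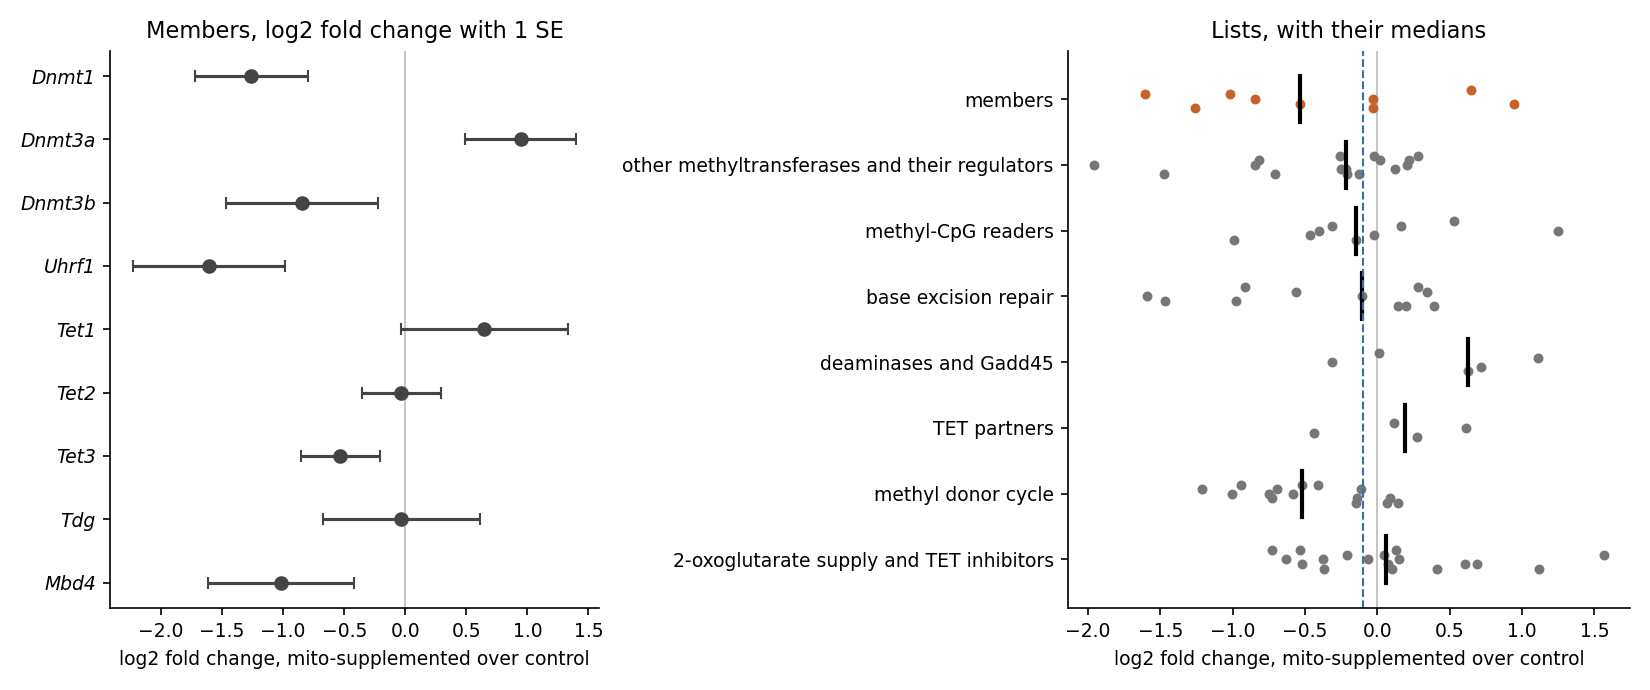
Log2 fold changes of mito-supplemented over control libraries for the 9 tested genes with 1 SE (left), and for each list of pathway genes as points with the list's median as a bar (right). The dashed line is the median of all genes tested, -0.10; the 9 genes have a median of -0.53.

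Without the 3 libraries that stood apart, 2 controls and 3 mito-supplemented libraries were compared. Uhrf1 then had a log2 fold change of -2.06 and Dnmt1 of -1.01, both with an adjusted p of 0.418 in the edgeR quasi-likelihood test and an unadjusted p under 0.05, where 4.91% of the 14568 genes tested were lower and 5.91% higher at that level; 0 members were higher at it. The log2 fold change of Dnmt3b was -1.34, of Mbd4 -0.82, of Tet3 -0.77, of Tet2 -0.26, of Tdg -0.25, of Dnmt3a 0.67 and of Tet1 0.47. In these 5 libraries the groups did not overlap for 6 genes: Dnmt1, Uhrf1, Mbd4, Tet3 and Dnmt3b were lower and Dnmt3a higher. Of all genes tested, 14.9% were lower and 14.7% higher without overlap in the same libraries. Among the 3 libraries that stood apart, mito-supplemented replicate 1 was below both controls for Dnmt1, Uhrf1, Mbd4 and Tet3 and above both for Dnmt3a, Tet2 and Tdg, where 36.7% of all genes tested were below both and 37.5% above both.

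**Figure D3:**
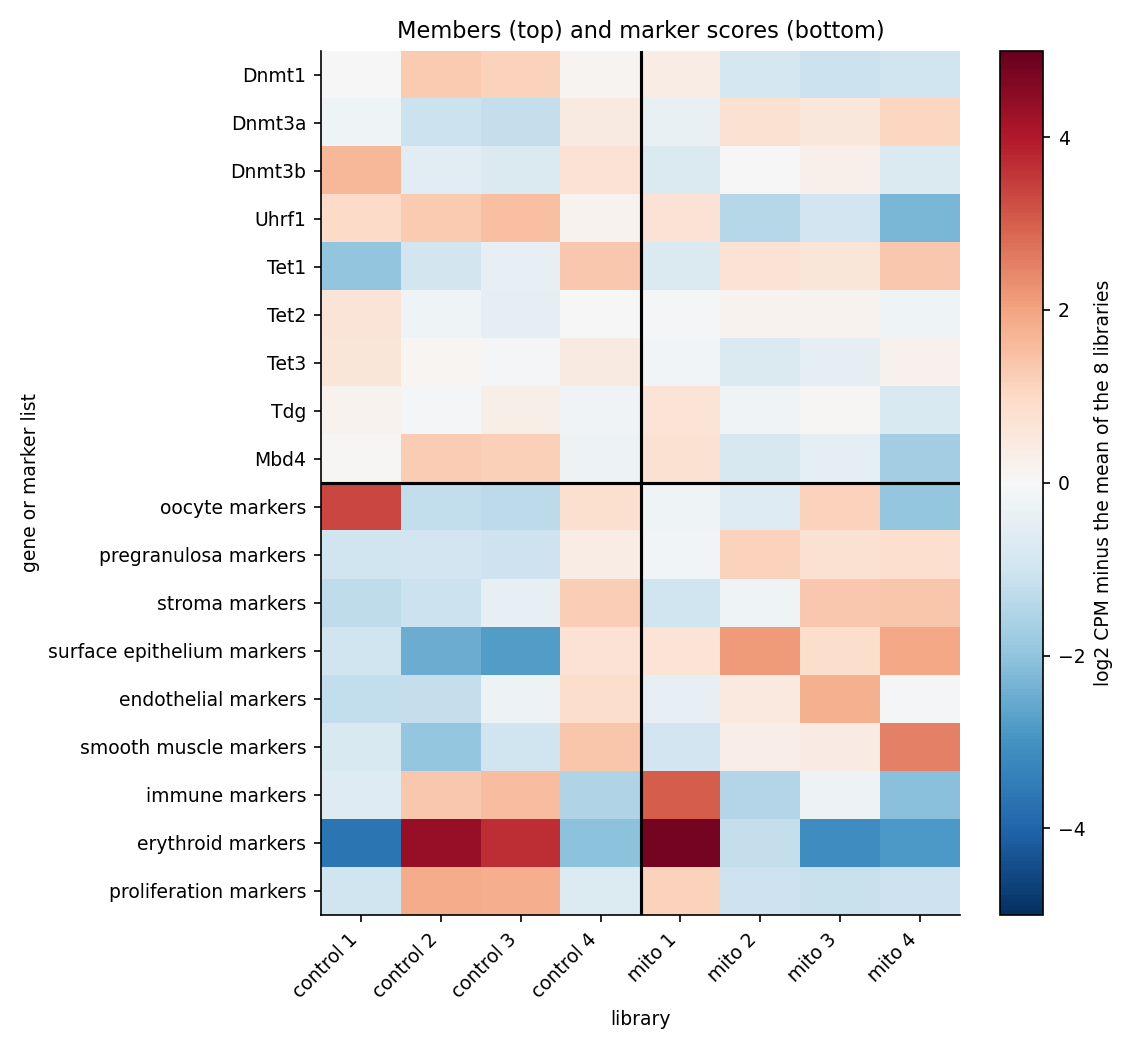
The 9 tested genes (top) and the marker scores (bottom; mean log2 CPM of each list) in the 8 libraries, as the difference from the mean of the 8 libraries on the log2 scale. Control replicates 2 and 3 and mito-supplemented replicate 1 are high for the erythroid, proliferation and immune markers, and Dnmt1, Uhrf1 and Mbd4 are above their means in the same libraries, as are Uhrf1 and Mbd4 in control replicate 1 and Dnmt1 and Uhrf1 in control replicate 4.

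The members were next set against the cell makeup of the libraries. Marker scores are the mean log2 CPM of a list, and 18 relations of the 9 genes with the oocyte and pregranulosa scores were tested over the 8 libraries by exact permutation, with Benjamini-Hochberg adjustment over the 18. The oocyte score was related to Dnmt3b (r = 0.924, p = 0.00295, adjusted p = 0.0205; rho = 0.905, p = 0.00456, adjusted p = 0.0274, exact permutation). It was also related to Tet2 (r = 0.866, p = 0.00692, adjusted p = 0.0311; rho = 0.833, p = 0.0154, adjusted p = 0.0554, exact permutation). Without control replicate 1 and mito-supplemented replicate 3, the libraries farthest from the median score, r was 0.790 for Dnmt3b and 0.503 for Tet2, so that the relation of Tet2 rested on those libraries. Over all genes tested, 3.37% had an r with the oocyte score of at least the size of that of Tet2. Over the 8 libraries r with this score was 0.228 for Uhrf1, 0.002 for Mbd4 and 0.07 for Dnmt3a. In the 5 libraries that did not stand apart it was 0.927, 0.927 and -0.977 for these. There it was 0.961 for Dnmt3b, 0.857 for Tet2, 0.897 for Tdg, 0.62 for Dnmt1, 0.404 for Tet3 and -0.823 for Tet1. The values in these 5 libraries were not tested.

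The pregranulosa score was related to 5 genes, to 3 of them with a negative sign. With scaling by library size only, Dnmt3a alone passed with this score and Dnmt3b alone with the oocyte score, so that 2 of the 7 relations remained. Uhrf1 had r = -0.917 (p = 0.00278, adjusted p = 0.0205; rho = -0.952, p = 0.00114, adjusted p = 0.0205, exact permutation). For Dnmt1, r was -0.859 (p = 0.0111, adjusted p = 0.0392; rho = -0.714, p = 0.0576, adjusted p = 0.148, exact permutation). Mbd4 gave r = -0.835 (p = 0.0131, adjusted p = 0.0392; rho = -0.857, p = 0.0107, adjusted p = 0.0482, exact permutation). Thus, with TMM scaling, the libraries with more RNA of these somatic markers had lower levels of the maintenance pair and of Mbd4. The surface epithelium score was likewise lowest in control replicate 3 (1.07) and highest in mito-supplemented replicate 2 (5.99). The pregranulosa score was at 3.71 and 5.91 there. The relation of the surface epithelium score to the 9 genes was not tested.

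Dnmt3a and Tet1 went the other way. Dnmt3a had r = 0.920 with the pregranulosa score (p = 0.00342, adjusted p = 0.0205; rho = 0.905, p = 0.00456, adjusted p = 0.0274, exact permutation), and Tet1 had 0.831 (p = 0.0188, adjusted p = 0.0483; rho = 0.738, p = 0.0458, adjusted p = 0.137, exact permutation). Without control replicates 3 and 1, which were farthest from the median score, r was -0.898 for Uhrf1, -0.957 for Dnmt1, -0.897 for Mbd4, 0.964 for Dnmt3a and 0.807 for Tet1. Within the 4 controls it was -0.930, -0.490, -0.714, 0.839 and 0.865 in the same order, and within the 4 mito-supplemented libraries -0.871, -0.912, -0.815, 0.918 and 0.875. In the 5 libraries that did not stand apart it was -0.853, -0.712, -0.679, 0.926 and 0.869 in that order, which was not tested. Of all genes tested, 8.52% had an r with this score of at least the size of that of Tet1. The scores and the genes share the scaling of each library, and without control replicate 3 or 4, or without mito-supplemented replicate 3, 0 of the 18 relations passed; without mito-supplemented replicate 4 it was 1, without control replicate 2 it was 3, and without any other library it was 4 or 5.

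The proliferation score fell into separate clusters, from 5.34 to 5.78 in 5 libraries and from 7.59 to 8.32 in control replicates 2 and 3 and mito-supplemented replicate 1, so no r over the 8 libraries is given and its relation to the 9 genes was not tested. Dnmt1 and Mbd4 were highest in the same 3 libraries, at 318 to 606 and at 31.0 to 44.4 CPM. In the other 5 libraries, Dnmt1 and Uhrf1 were lower in the mito-supplemented libraries as given above. The sum of the proliferation genes, of which Mki67 gave the most, overlapped between the groups there, at 1125 and 2054 CPM in controls and 1796, 1369 and 1591 CPM in mito-supplemented libraries. The score, in which each gene counts alike, was at 5.34 to 5.41 in the 3 mito-supplemented libraries, below both controls at 5.44 and 5.78. Of the 13 genes, Mcm2, Ccna2, Ccnb1 and Bub1 were lower without overlap, as Dnmt1 and Uhrf1 were, Rrm2 was higher and 8 overlapped, against 14.9% and 14.7% of all genes tested that were lower and higher. What part the cell makeup had in the group differences was not tested.

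**Figure D4:**
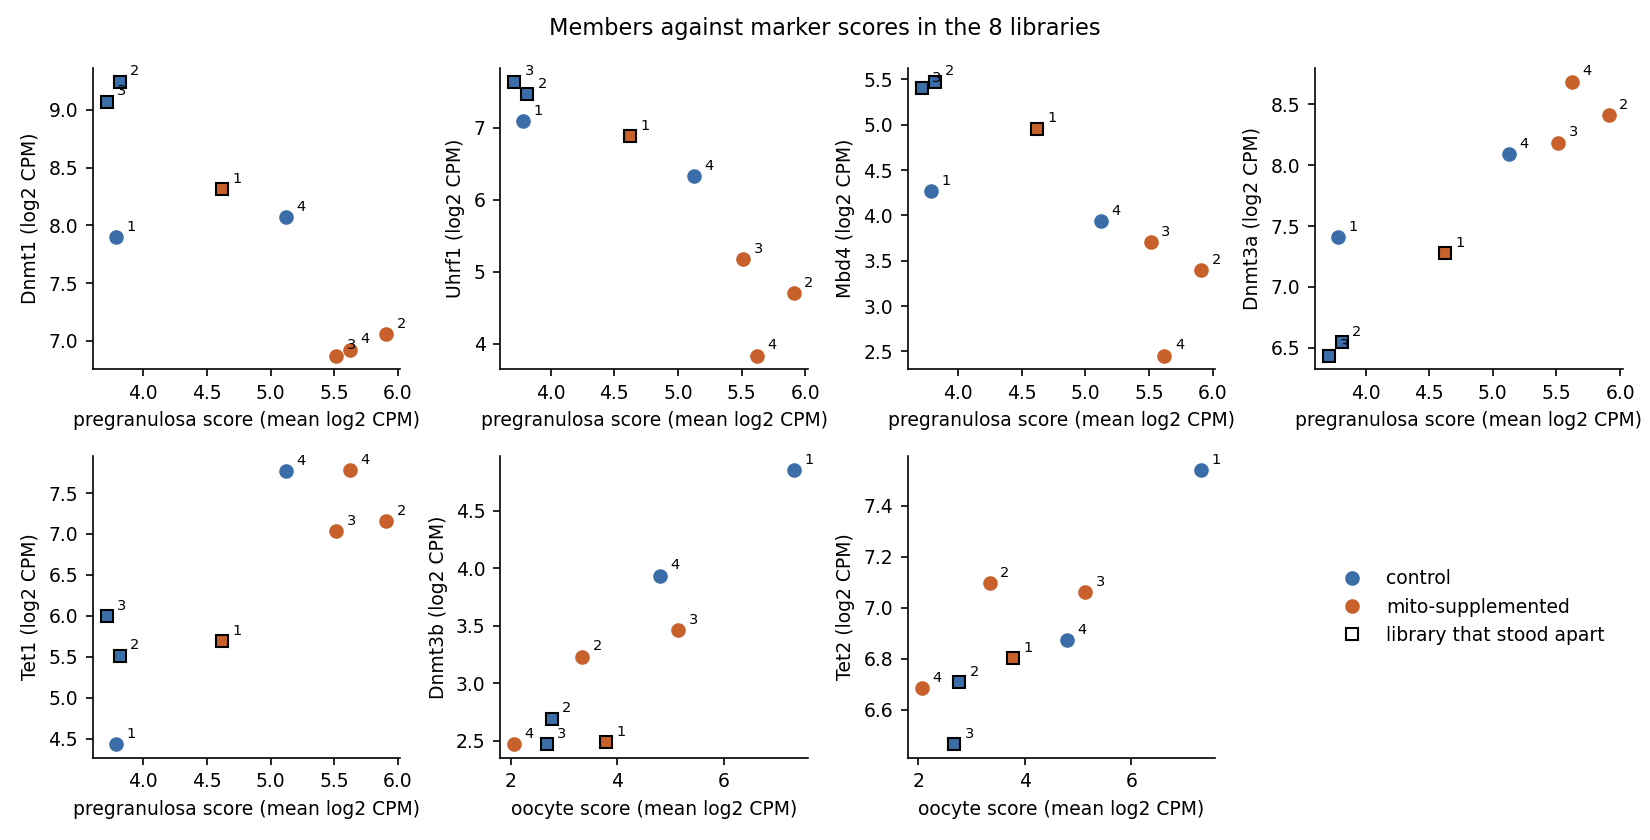
Log2 CPM of the genes related to the pregranulosa score (Dnmt1, Uhrf1, Mbd4, Dnmt3a and Tet1) and to the oocyte score (Dnmt3b and Tet2) against that score (mean log2 CPM) in the 8 libraries, numbered by replicate. Squares with a black edge are the libraries that stood apart; the highest oocyte score is that of control replicate 1, which also has the highest Dnmt3b and Tet2.

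The rest of the pathway was described by 83 further genes in 7 lists, of which 78 were tested and 0 passed an adjusted p under 0.05 in the edgeR quasi-likelihood test. At an unadjusted p under 0.05, 3 were higher and 0 lower, against 5.31% and 2.4% of all genes tested. Their median log2 fold change was -0.13, with 45 below 0 and 33 above, and -0.06 without the 3 libraries that stood apart, where 0 were called. Scaling by library size only turned the median of the tested pathway genes to 0.16, and that of all genes tested to 0.17. Among 16 tested methyltransferases and regulators, 11 were below 0, with a median of -0.21; the smallest p values were those of Hells, a remodeller needed for methylation of repeats, and Kdm1b, a histone demethylase needed for methylation of imprinted genes in oocytes. Hells had means of 55.3 ± 16.8 CPM (SD, n = 4) in controls and 31.4 ± 10.6 CPM in mito-supplemented libraries, a log2 fold change of -0.82 ± 0.39 (SE). Kdm1b was at 439, 36.3, 31.3 and 115 CPM in controls and at 54.4, 37.1, 64.3 and 4.03 CPM in mito-supplemented libraries, highest in the library with the highest oocyte markers.

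The 9 methyl-CpG readers had a median of -0.15, and Zbtb4 at 1.25 ± 0.53 (SE) and Mbd1 at -0.99 ± 0.59 had the smallest p. For the 11 base excision repair genes the median was -0.10, with Xrcc1, the scaffold of single-strand repair, at -0.97 ± 0.55 and the uracil glycosylase Ung at -0.91 ± 0.61. Of 7 deaminases and Gadd45 genes, 5 were tested, with Gadd45b at 1.11 ± 0.64 and Apobec3 at 0.72 ± 0.79. The 4 TET partners had a median of 0.19, with the CXXC protein gene Cxxc5 at 0.61 ± 0.55 and the glycosyltransferase gene Ogt at 0.27 ± 0.34. All of these are log2 fold changes with their SE, and 0 passed adjustment in the edgeR quasi-likelihood test. With limma-voom weights, 14 of the 78 tested pathway genes passed, where 2913 of all 13873 genes tested did. Among the 14 were Zbtb4 and Mbd1 here, Hells above and Tyms, Gpt2 and Idh1 below.

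In the methyl donor cycle 15 of 17 genes were tested, and 12 were below 0 with a median of -0.52. Tyms, which makes thymidylate, was at -0.94 ± 0.57 (SE) and Mtrr, which reactivates methionine synthase, at -0.58 ± 0.43. Among the 18 genes that supply 2-oxoglutarate, the cofactor of the TET enzymes, or act on metabolites that inhibit them, 10 were above 0. Gpt2, a mitochondrial alanine aminotransferase, was at 4.31, 4.04, 3.49 and 7.11 CPM in controls and at 4.51, 14.7, 11.8 and 24.9 CPM in mito-supplemented libraries, a log2 fold change of 1.57 ± 0.60 (SE). Idh1, the cytosolic isocitrate dehydrogenase, was at 40.7, 33.2, 33.7 and 77.4 CPM and at 55.5, 150, 120 and 75.8 CPM in the same order, with 1.12 ± 0.43 (SE). Both had an adjusted p of 0.626 in the edgeR quasi-likelihood test, and in both the groups overlapped.

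The genes most like each member in pattern were those with the highest Pearson r of log2 CPM over the 8 libraries among all genes tested, given as a description. For Dnmt1 they were Gins1, a subunit of the replication helicase, at 0.995 and Bard1, a partner of Brca1, at 0.991. For Uhrf1 they were Sirt1 at 0.995 and Ccdc88c at 0.990, and for Mbd4 they were Rcc2 at 0.992 and Hace1 at 0.991. Dnmt3a was closest to Dcaf12l1 at 0.989 and Trio at 0.988, Dnmt3b to Tom1l2 at 0.994 and D15Ertd621e at 0.988. Tet1 was closest to Sept2 at 0.989 and Palmd at 0.985, Tet2 to Crybg3 and Gnpda2, both at 0.976, Tet3 to Syngr4 at 0.938 and Rqcd1 at 0.933, and Tdg to Tmem170b at 0.970 and Atic at 0.967. Tet3 thus had the least close neighbours of the 9 genes.

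The direction of 6 of the 9 genes was the same under all 21 alternatives. Dnmt1 ranged from -1.93 to -0.99, Uhrf1 from -2.52 to -1.28 and Mbd4 from -1.67 to -0.72 in log2 fold change. Dnmt3a ranged from 0.67 to 1.61, Tet1 from 0.35 to 1.66 and Tet3 from -0.77 to -0.26. Dnmt3b, Tet2 and Tdg changed sign under at least 1 alternative each.

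**Figure D5:**
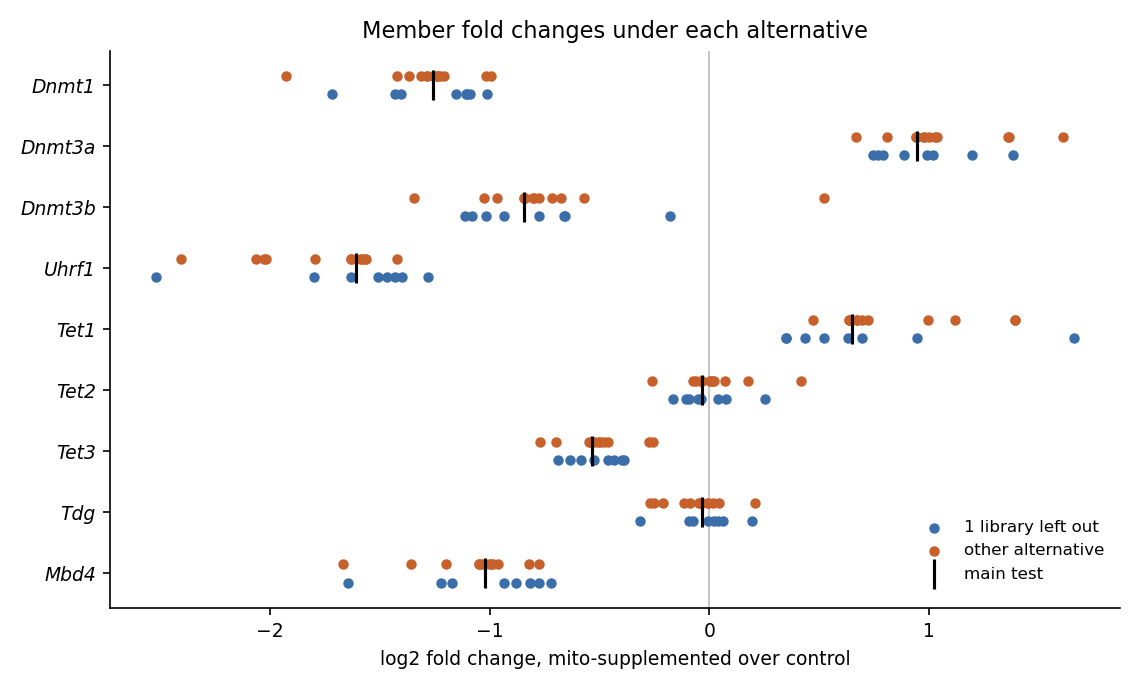
Log2 fold change of mito-supplemented over control libraries for each of the 9 tested genes in the main test (bar), with 1 library left out (blue points) and under the other alternatives (orange points). The points of Dnmt1, Uhrf1, Mbd4 and Tet3 stay below 0 and those of Dnmt3a and Tet1 above 0, while those of Dnmt3b, Tet2 and Tdg lie on both sides.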

How the data were processed

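Per the submitters' processing notes, the authors used Trim Galore 0.4.4, STAR 2.5.3a on mm10 and featureCounts on exons, and deposited raw counts per gene symbol for 4 control and 4 mito-supplemented libraries. The annotation, the strandedness and the treatment of multiply mapped reads were not given in the sources used here. A further control library that the study set aside was not analysed here.

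Counts were scaled by TMM and filtered by expression with default settings (edgeR 4.0.16, R 4.3.3), and a quasi-likelihood test compared the groups with Benjamini-Hochberg adjustment over all genes tested. Log2 CPM used a prior count of 2. Scripts were tested on simulated data. DESeq2 1.42.0, limma 3.58.1, other scalings and filters, a GC content and length offset, a replicate block, counts summed by label prefix and leaving out each library were alternatives. The comparison without 3 libraries and the counts at an unadjusted p under 0.05 were added after the data were examined, and the planned relation with the proliferation score was not tested. Exons and near copies (BLAST 2.17.0, at least 90% identity over 500 bases) came from GENCODE M21, and promoters from RefSeq.

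The members, the pathway lists and the marker lists (oocyte, pregranulosa, stroma, surface epithelium, endothelial, immune, erythroid, smooth muscle, proliferation) were chosen with earlier results of these data known. Genes named were the members, their near copies, the 2 genes with the smallest p of each pathway list, the 2 genes most like each tested member and the most abundant gene of each marker list; Rnr1, Rnr2, Ddx4, Hba-a1, Hba-a2, Gm9855, Mcm2, Ccna2, Ccnb1, Bub1 and Rrm2 were named after their values were seen.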

Additional observations from a re-analysis of the deposited data

Results flagged for a closer look

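In 38 groups of 4 libraries, each a gene or marker list in the control or the mito-supplemented group or the total counts, 11 held a library far from the other 3 (by the size of the gap to the nearest library against the whole range). Chance gives about 1 in 20 groups, or 1.9 here, only where values are normally distributed. Whether CPM and their sums are was not tested, and the lists are not independent of each other. The count of 11 can therefore not be read against 1.9.

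Dnmt1 was at 318 CPM in mito-supplemented replicate 1 and between 117 and 133 CPM in the other 3 of its group. The same library was far above its group for the erythroid markers at 4530 CPM, the proliferation genes at 13204 CPM and the immune markers at 779 CPM. What part these markers had in its Dnmt1 level was not tested.

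Control replicate 4 was far above the other controls for the pregranulosa markers at 903 CPM, the stroma markers at 2199 CPM, the surface epithelium markers at 331 CPM, the endothelial markers at 225 CPM and the smooth muscle markers at 226 CPM. It was also the control with the highest Dnmt3a and Tet1. Control replicate 1 stood above its group for the oocyte markers at 4466 CPM and had the highest Dnmt3b and Tet2 of all libraries. Mito-supplemented replicate 4 stood above its group for the smooth muscle markers at 324 CPM.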

How the results depend on the processing

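The count of 0 genes called by the quasi-likelihood test became 58 by likelihood ratio, 141 by DESeq2 and 2913 by limma-voom and sample quality weights, and 0 under every other scaling, filter and left-out library tried. With limma-voom weights, 4 members and 14 pathway genes were called, and 0 under the other alternatives. The number of members with an unadjusted p under 0.05, chosen after the data were examined, was 2 in the main test. It was 6 with limma-voom weights, where 18.4% of all genes tested were lower and 19.2% higher at that level. With 1 library left out it was between 0 and 4. With library size only it was also 2, but these were Dnmt3a and Tet1, both higher, in place of Dnmt1 and Uhrf1. The median log2 fold change of the tested members, -0.53, was -0.21 with limma-voom weights, -0.27 with counts summed by label prefix, -0.28 with library size only, -0.77 without the 3 libraries that stood apart and between -0.66 and -0.18 with 1 library left out, the highest without control replicate 1. The median of the pathway genes, -0.13, was 0.16 with library size only, which moved the median of all genes from -0.10 to 0.17. The causes were not tested.

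Of 18 relations with marker scores, 7 passed in the main test, 4 by Spearman rho, 2 with library size only and between 0 and 5 with 1 library left out, where 7 libraries remain.

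Signs changed as follows. The log2 fold change of Dnmt3b was 0.52 with limma-voom weights. That of Tet2 was 0.42 with limma-voom weights, 0.18 with library size only, 0.07 with upper quartile factors, 0.0024 without the 4 rRNA genes, 0.0225 at 1 count in any sample, 0.0008 at 1 CPM in 4 samples and between -0.16 and 0.25 with 1 library left out. That of Tdg was 0.21 with library size only, 0.0434 with upper quartile factors, 0.0141 at 1 count in any sample and between -0.32 and 0.19 with 1 library left out. The exact permutation test of the difference in level turned in sign for Tet2 with library size only (p = 0.743) and on the log2 scale (p = 1.0), and for Tdg with library size only (p = 0.657).

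The labels do not state that replicate numbers pair the samples. Across genes, deviations of same-numbered libraries from their group means correlated at -0.244, -0.191, -0.334 and 0.222 for replicates 1 to 4. Libraries with different numbers were not compared in this way, so these values cannot decide whether the numbers pair samples. With the replicate block, 0 genes, 0 members and 0 pathway genes were called, the members' median was -0.55 and that of the pathway genes -0.13, and the log2 fold change of Tet2 was 0.017. Depth limits Tdg, with 15 counts in control replicate 4, and Dnmt3l, with 0 counts throughout.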

Other observations

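Gm9855, the Tdg pseudogene that the count table lists, had 0, 17, 40 and 0 counts in control replicates 1 to 4 and 44, 16, 21 and 11 counts in mito-supplemented replicates 1 to 4. Tdg itself had 93, 41, 74 and 15 counts in controls and 114, 43, 77 and 28 in mito-supplemented libraries. The pseudogene's highest raw count was thus in mito-supplemented replicate 1, the library with the highest Tdg count. Scaled as CPM, Gm9855 was highest in control replicate 3, at 2.29 against 2.14 CPM in mito-supplemented replicate 1, where Tdg was highest. Gm9855 was at 0 in control replicate 1, where Tdg had 93 counts.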
